A study of Drosophila melanogaster with 2 samples.

Results

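The genes of chromosome 4 of Drosophila melanogaster were taken from the deposited expression tables as every gene whose locus lies on that chromosome, without ey, toy and ci. This left 82 of the 14210 genes in the tables. Messenger RNA had been measured in 2 libraries, 1 per genotype, from GFP-positive cells sorted from larval brains late in the third instar. In both, worniu-Gal4 with ase-Gal80 drove UAS-CD8::GFP, a membrane marker, in type II neuroblast lineages, which are neural stem cells together with the intermediate neural progenitors (INPs) they produce. The wild type library (w1118 strain) contained ganglion mother cells beside neuroblasts and INPs, and no neurons by its label. The osa RNAi library came from flies that also carried an RNAi line against osa (VDRC TID:7810) under the same driver, and contained INPs, neuroblasts and neuroblast-like cells that had reverted. Larvae of both genotypes grew from eggs laid over 24 h and kept for 5 days at 25 °C. The number of brains behind each library is not known here.

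Chromosome 4 is the smallest autosome of the fly, often called the dot chromosome. Most of it carries marks of heterochromatin, the compact form of chromatin, among them the protein HP1a and methylation of histone H3 at lysine K9 by the enzyme Eggless. Its genes are nevertheless transcribed, and the RNA-binding protein Pof coats the chromosome. osa encodes a subunit of the SWI/SNF (Brahma) complex, which moves nucleosomes. The comparison asks how levels of these genes differ between lineages with and without osa knockdown, beside other genes at similar levels.

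Levels are FPKM values (fragments per kilobase of transcript, scaled to library size), with lower and upper bounds that cover counting error. The widths of these bounds gave 10114559 implied reads for the wild type and 15707014 for osa RNAi, and a median of 723 and 827 implied reads for chromosome 4 genes above 0. The targeted gene osa stood at 31.3 FPKM in the wild type and 15.6 FPKM under osa RNAi. Neuroblast markers summed to 353 and 511 FPKM over 4 genes, INP markers to 216 and 111 over 4 genes, and neuronal markers to 78.2 and 39.0 over 6 genes, all of them above 0. The neuroblast sums differed mostly through mira (192 and 302 FPKM) and pnt (13.8 and 53.3 FPKM). dpn (61.97 and 67.3 FPKM) and wor (85.2 and 89.3 FPKM) differed little. The INP sums differed mostly through D (82.3 and 23.8 FPKM) and ham (49.9985 and 18.05 FPKM). ase was at 39.4 and 27.7 FPKM, and erm differed little (44.7 and 41.8 FPKM). Of 5 glial genes, the defining gene repo had a listed 0 in the wild type and 0.709 FPKM under osa RNAi. The other glial genes were at lower values under osa RNAi. The glial sums of 285 and 237 FPKM rested mostly on Eaat1 (126 and 115 FPKM) and nrv2 (156 and 120 FPKM). Of 3 haemocyte genes, nimC1 was listed at 0 in both libraries (sums 4.36 and 0.0399 FPKM), as was Lsp2 of 3 fat body genes (4.42 and 3.20 FPKM). The part of these markers in the differences below was not tested. In bulk RNA, fewer cells of a type and less RNA per cell cannot be told apart. With 1 library per genotype no difference has a replicate check, and no test between genotypes was made.

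Most chromosome 4 genes were expressed in these lineages. Of the 82 genes, 61 had a mean of at least 1 FPKM over the libraries, which is 74.4%, against 50.3% of 14125 other genes. On the large arms this share ran from 46.0% on 2L to 55.2% on X. One of the 61, Hcf, which encodes host cell factor, a cofactor in chromatin complexes, had a failed estimate under osa RNAi, and 60 genes were therefore compared. These 60 had a median of 27.4 FPKM in the wild type and 21.6 FPKM under osa RNAi, whereas 7082 other genes had medians of 16.1 and 16.6 FPKM. Their loci were longer, with a median of 8.97 kb against 2.56 kb, and had a median of 3 annotated transcripts against 1. Fewer of them overlapped another locus, 7 of 60 (11.7%) against 42.3% of the others.

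The remaining 21 genes lay below the mean of 1 FPKM. Of these, 9 were listed at 0 in both libraries, among them the transcription factor genes NfI and fuss (CG11093 in the files), and 6 of the 9 had loci under 2000 bp, such as the small nucleolar RNA gene CR43712 inside RpS3A. A listed 0 in these files does not show that a transcript was absent. Genes listed at 0 in wild type alone were Actbeta, a ligand gene of the TGF-beta family (1.17 FPKM under osa RNAi), the GABA transporter gene Gat (CG1732, 0.604 FPKM), the Sox gene Sox102F (0.534 FPKM), CG33521, CG1674 and CG32006. Equal levels of Actbeta would correspond to 34.8 reads in the shallower wild type library, and 35.3% of the genes expected there at 20 to 40 reads were listed at 0. Genes listed at 0 under osa RNAi alone were the glutamate receptor gene mGluRA (0.627 FPKM in the wild type), yellow-h (0.407 FPKM) and the lipid carrier gene Rfabg (0.115 FPKM). The giant muscle protein gene bt, whose locus spans 51.7 kb, lay under the FPKM minimum with 124 and 15 implied reads. It stood at 0.509 FPKM in the wild type and 0.0349 FPKM under osa RNAi, with bounds that did not overlap.

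Few chromosome 4 genes differed by 2-fold, and those below 0 outnumbered those above. Differences are in log2(FPKM + 1), osa RNAi minus wild type, which understates those of low genes. The limit of 2-fold was passed when this difference reached 1 in size, the mean FPKM was at least 1 and the deposited bounds did not overlap. By this rule 4 of 60 genes were lower and 1 was higher under osa RNAi, 8.33% in all. Over all 7142 genes compared, 6.76% were lower and 7.78% higher, 14.5% in all, so the share of lower genes on chromosome 4 (6.67%) was at the background. Among other genes weighted to the same levels, 5.40% were lower and 6.37% higher. Rescaling the libraries by their upper quartiles left 1 lower gene (dpr7) and 1 higher gene (sphinx), with 427 lower and 687 higher genes in all. A pseudocount of 5 in place of 1 left none on chromosome 4, and 109 lower and 154 higher in all. None of the 15 genes in the authors' deposited table of differential expression, whose adjusted p-values reach up to 0.00741, lies on chromosome 4. The chromosome's 82 genes are a small part of all 14210, so a list of 15 genes can say little about them.

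**Figure D1:**
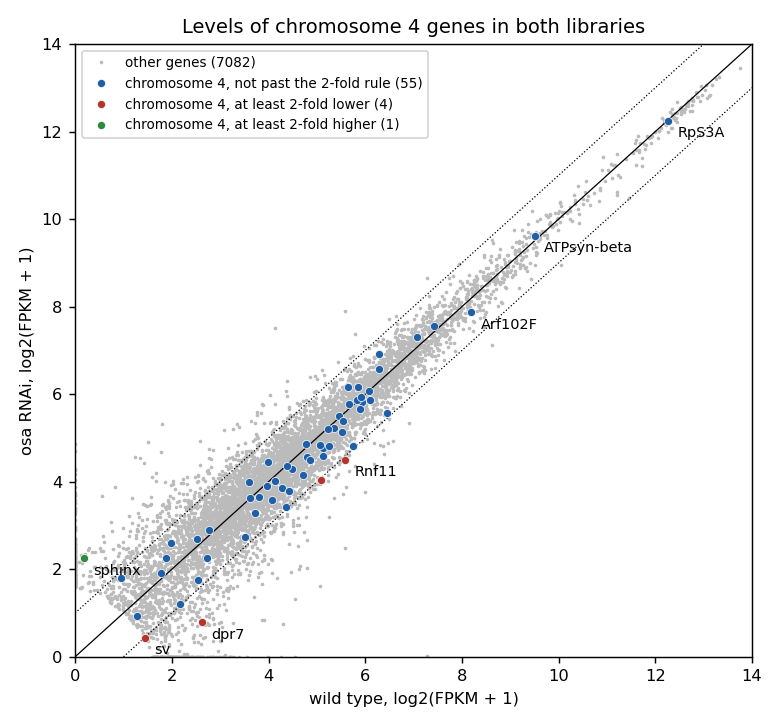
Level of each gene in wild type (x axis) and osa RNAi (y axis) as log2(FPKM + 1), with 7082 other genes in grey and 60 chromosome 4 genes in colour. The solid line marks equal levels and the dotted lines a difference of 1; the 4 genes at least 2-fold lower (Rnf11, dpr7 and sv are labelled) lie on or below the lower dotted line, sphinx lies above the upper one, and RpS3A and ATPsyn-beta sit on the diagonal at the top.

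Among the 4 lower genes, dpr7 had the largest difference. It encodes a cell surface protein of the immunoglobulin superfamily in the dpr family, whose members bind partners at synapses. dpr7 (FBgn0053481, chromosome 4 from 267750 to 273754 in the coordinates of the files) was at 5.21 FPKM in the wild type (bounds 3.58 to 6.83) and 0.723 FPKM under osa RNAi (0.266 to 1.18). The plain ratio was 7.21-fold lower under osa RNAi (95% counting interval 3.61 to 14.4), resting on 41 and 10 implied reads, and the difference on the log2(FPKM + 1) scale was −1.85. The wild type level thus lay above the osa RNAi level with bounds well apart, at low read numbers in both.

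The ubiquitin ligase gene Rnf11 (CG32850, from 335572 to 342013) was expressed at a middle level. It was at 47.0 FPKM in the wild type and 21.6 FPKM under osa RNAi, 2.17-fold lower (1.96 to 2.40), with a difference of −1.08. It had at least 684 implied reads in each library, and its bounds were far apart. The Pax2 gene shaven (sv, from 1109444 to 1133943), which acts in sense organ development, was at 1.72 FPKM and 0.352 FPKM. Its difference of −1.01 was just past the limit, with 37 and 14.6 implied reads.

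The single gene at least 2-fold higher was sphinx (from 995794 to 997932), a non-coding RNA gene that arose from a retroposed copy of an ATP synthase gene. It was at 0.132 FPKM in the wild type and 3.76 FPKM under osa RNAi, a difference of 2.07. The ratio of 28.4 has a counting interval from 2.28 to 354, since the wild type value rests on 0.612 implied reads. The sphinx locus lies wholly within that of fuss, which was listed at 0 in both libraries, and a retroposed copy may share reads with its parent gene, so its value is uncertain.

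Several genes lay just short of the limit of 1, all but one of them lower. The differences were −0.97 for the TGF-beta ligand gene maverick (mav, 3.51 FPKM in the wild type and 1.297 under osa RNAi), −0.94 for Caps (19.5 and 9.69 FPKM), −0.93 for CG11360 (52.4 and 27.0 FPKM) and −0.87 for Arl4 (CG2219, 85.9 and 46.6 FPKM). The nearest on the other side was the kainate-type glutamate receptor gene Ekar (CG9935), at 0.942 and 2.502 FPKM with a difference of 0.85. Rnf11 and sv, given above, lay just inside the limit.

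Smaller differences leaned toward lower levels under osa RNAi. Of the 60 genes, 37 had a difference below 0 (61.7%), whereas 46.5% of other genes weighted to the same levels did. The bounds did not overlap for 27 lower and 11 higher genes and overlapped for 22. Over all genes compared, 29.9% were lower with bounds apart and 35.9% were higher, and among other genes of like level these shares were 29.5% and 35.8%. On chromosome 4 they were 45.0% and 18.3%. The median difference of the 60 genes was −0.14 (quartiles −0.44 and 0.11), against 0.04 (−0.32 and 0.40) for all other genes and 0.04 for those of like level. The median size of the difference without its sign was 0.34 on chromosome 4 and 0.34 among other genes of like level.

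The comparison with other genes changed little with how they were weighted. The difference between the median of chromosome 4 and that of other genes was −0.18 with weights by level and −0.18 with weights by level and locus length together. Taken arm by arm at the same levels, the medians ran from 0.01 on X to 0.07 on 3R, and the share of genes below 0 from 44.2% on 3R to 49.5% on X. Each arm holds at least 1219 compared genes, so its median is far less variable than that of 60 genes. Rescaling the libraries by their upper quartiles raised the median of all genes from 0.04 to 0.15. It moved the chromosome 4 median to −0.03, left 21 lower and 16 higher genes with bounds apart (1665 and 3165 over all genes), and kept the difference from genes of like level at −0.18.

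**Figure D2:**
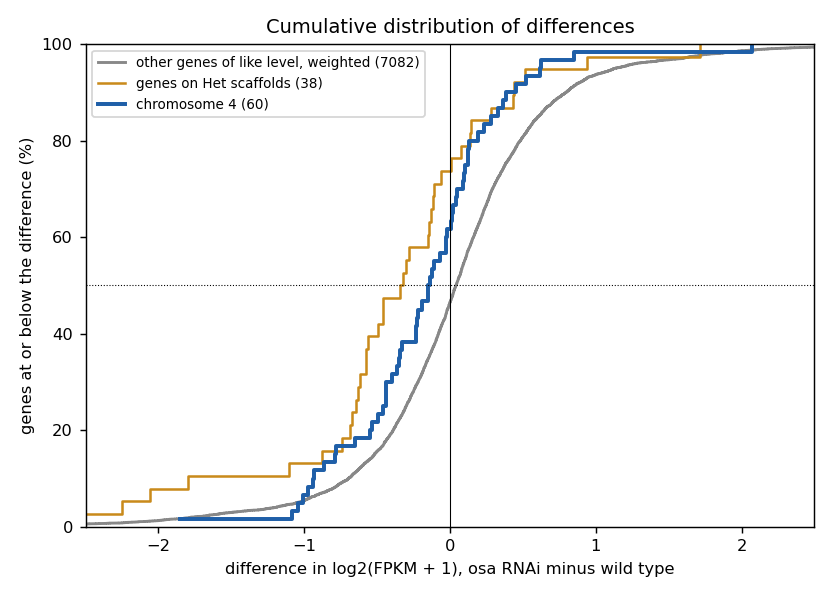
Share of genes (y axis, percent) at or below each difference in log2(FPKM + 1), osa RNAi minus wild type (x axis), for 60 chromosome 4 genes, 38 genes on heterochromatic scaffolds and 7082 other genes weighted to the levels of the chromosome 4 genes. The chromosome 4 curve crosses 50% at −0.14 and the grey curve at 0.04; 61.7% and 46.5% of genes lie below 0.

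Genes on the scaffolds assigned to the heterochromatin of other chromosomes (2LHet, 2RHet, 3LHet, 3RHet, XHet and YHet) were added to the comparison, as a further set in heterochromatin, after values had been seen. Of 76 such genes, 38 were compared. Their median difference was −0.33, with 28 below 0 (73.7%). Other genes at the levels of these scaffold genes had a median of 0.03, with 47.5% below 0. With bounds apart, 24 scaffold genes were lower and 5 higher, beside 29.9% and 35.9% over all genes compared. Examples were rl, the fly ERK kinase gene, at 105 FPKM in the wild type and 66.8 FPKM under osa RNAi, and Parp, the gene of poly(ADP-ribose) polymerase, at 42.5 and 28.1 FPKM. The ribosomal protein gene RpL15, the most highly expressed of them, was at 7407 and 7090 FPKM. Examples above 0 were CG40191, at 125 and 178 FPKM, and vtd, at 60.5 and 73.8 FPKM. By the 2-fold rule 5 of the 38 were lower and 1 was higher, beside 6.76% and 7.78% over all genes compared. After rescaling by the upper quartile the scaffold genes had a median of −0.22, with 21 lower and 8 higher with bounds apart (1665 and 3165 over all genes).

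The lower differences on chromosome 4 were found mostly at low and middle levels. The 20 genes with the lowest levels had a median of −0.25, with 11 below 0 and with 9 lower and 4 higher with bounds apart. Of the 20 genes at middle levels, from 14.4 to 39.7 FPKM, 18 were below 0, 12 were lower with bounds apart and none was higher (median −0.29). The 20 genes with the highest levels had a median of 0.03, with 8 below 0 and with 6 lower and 7 higher genes with bounds apart. Over all genes compared, 29.9% were lower and 35.9% higher with bounds apart. Other genes in the same 3 level ranges had medians of 0.04, 0.04 and 0.04, with 47.5%, 46.7% and 45.3% below 0. Rescaled by the upper quartile, the genes at middle levels had 15 below 0, with 10 lower and 1 higher with bounds apart and a median of −0.18. The median of the lowest group was then −0.17, and the highest group had 3 lower and 11 higher genes and a median of 0.14, beside 0.15 for all genes. After this rescaling, 1665 of all genes were lower and 3165 higher with bounds apart. By locus length, the shortest 20 loci (up to 6.24 kb) had a median of 0.05, the middle 20 one of −0.29 and the longest 20 one of −0.19, while other genes in these length ranges had medians of 0.04, 0.06 and 0.06.

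Along the chromosome, lower and higher genes were interspersed. The longest stretches of compared neighbours with 1 sign were 5 genes, from plexB to CG32000 (all below 0) and from Mpv17 (CG11077) to Zyx (all above 0). Of 59 pairs of neighbours, 31 had the same sign (52.5%), a share that ran from 49.8% to 54.9% on the large arms. The Pearson correlation between the differences of neighbours was 0.137 on chromosome 4 and ran from 0.003 to 0.044 on the large arms. Each large arm has at least 1218 pairs, so the value from 59 pairs is far more variable. The lower stretches with the largest medians included CG31999, dpr7 and Syt7 (median −0.78), and onecut, Eph and mav (−0.65). Single genes above 0, such as Crk and Rad23, stood between lower ones. The stretch above 0 with Mpv17, CG11076, ATPsyn-beta, CaMKII and Zyx had a median of 0.11.

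**Figure D3:**
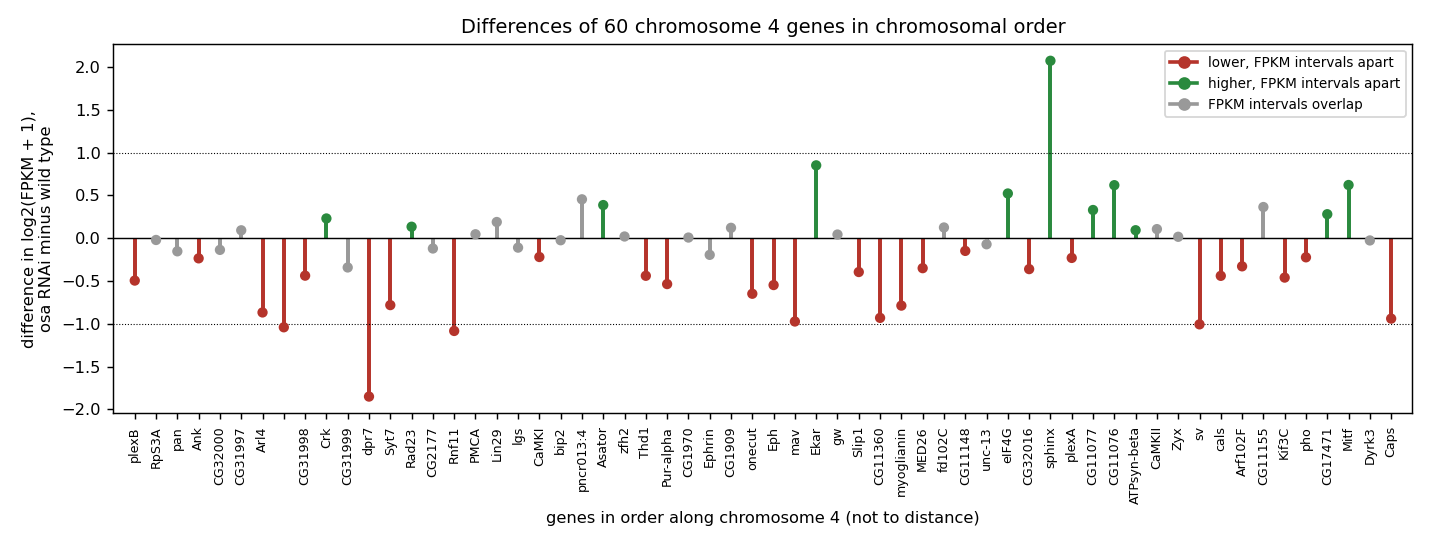
Difference in log2(FPKM + 1), osa RNAi minus wild type (y axis), of the 60 compared chromosome 4 genes in their order along the chromosome (x axis, not to distance). One gene carries no label. Red marks 27 lower and green 11 higher genes whose FPKM bounds do not overlap, grey marks 22 whose bounds overlap, and the dotted lines mark differences of −1 and 1.

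The genes were grouped into 6 lists by function, which cover 53 of the 82. As background for the lists, 45.0% of the chromosome's compared genes were lower and 18.3% higher with bounds apart. Over all genes compared these shares were 29.9% and 35.9%. By the 2-fold rule, 6.67% of the chromosome's compared genes were lower and 1.67% higher, beside 6.76% and 7.78% over all genes. Transcription factors and coregulators were represented by 14 genes, of which 10 were compared. Of these 1 (sv) was at least 2-fold lower and none was higher. The homeobox gene onecut was at 20.6 FPKM in the wild type and 12.8 FPKM under osa RNAi (difference −0.65), and the Mediator subunit gene MED26 at 33.8 and 26.3 FPKM (−0.35), both with bounds apart. pho, which encodes a DNA-binding protein that recruits Polycomb complexes, was at 67.5 and 57.6 FPKM (−0.22), with bounds that overlap after rescaling by the upper quartile. The Wnt pathway genes on the chromosome, pan (the fly TCF factor, 12.9 and 11.5 FPKM) and its coactivator lgs (16.6 and 15.3 FPKM), had overlapping bounds. So did bip2, which encodes the TFIID subunit Taf3 (36.3 and 35.7 FPKM), zfh2 (11.2 and 11.4 FPKM), the forkhead gene fd102C (5.82 and 6.44 FPKM) and the zinc finger gene dati (Lin29 in the files, 4.70 and 5.50 FPKM). The median difference of the list was −0.13, or −0.03 after rescaling by the upper quartile, beside −0.14 and −0.03 for the chromosome.

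Ligands, receptors and signalling enzymes had 10 compared genes, none past the 2-fold rule, with 6 lower and 3 higher with bounds apart. On the chromosome, 45.0% of compared genes were lower and 18.3% higher with bounds apart. Lower were the TGF-beta ligand genes mav, given above, and myoglianin (10.5 FPKM in the wild type and 5.65 under osa RNAi, difference −0.79). The receptor gene Eph, a tyrosine kinase for ephrins, was at 25.1 and 16.9 FPKM (−0.55), and its ligand gene Ephrin at 21.5 and 18.7 FPKM with overlapping bounds. The semaphorin receptor genes plexB (15.8 and 10.9 FPKM, −0.49) and plexA (32.5 and 27.5 FPKM, −0.23) were both lower. The remaining lower gene was the calcium-dependent kinase gene CaMKI, at 58.3 and 49.96 FPKM (−0.22). plexA and CaMKI had overlapping bounds after rescaling by the upper quartile. Higher were the adaptor gene Crk, which links receptors to small GTPases (134 and 158 FPKM, 0.23), the phosphoinositide kinase gene PIP4K (CG17471, 76.9 and 93.6 FPKM, 0.28), and Asator, a kinase gene of the tau-tubulin kinase family (11.1 and 14.8 FPKM, 0.39). The locus of Asator shares 191 bases with that of pncr013:4, which was at 14.8 and 20.7 FPKM. The median of the list was −0.23, or −0.11 after rescaling by the upper quartile.

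Synaptic and neuronal membrane genes had the lowest median of the 6 lists, −0.44 over 7 compared genes (−0.33 after rescaling by the upper quartile). Of these, 1 (dpr7) was at least 2-fold lower, and 3 others were lower with bounds apart, beside 45.0% lower with bounds apart on the chromosome. Caps, whose product primes dense core vesicles for release, was at 19.5 FPKM (18.1 to 20.9) in the wild type and 9.69 FPKM (8.96 to 10.4) under osa RNAi, a plain ratio of 2.01-fold lower (1.82 to 2.23). The calcium sensor gene Syt7 was at 4.84 and 2.40 FPKM (−0.78), and the calsyntenin gene cals at 37.3 and 27.2 FPKM (−0.44). The vesicle priming gene unc-13 was at 14.8 and 13.996 FPKM with overlapping bounds. Of the glutamate receptor genes of this list, Ekar, given above, was higher with bounds apart, and CG11155 (2.70 and 3.76 FPKM) had overlapping bounds. Of 6 neuronal markers in the same libraries, 5 were at lower values under osa RNAi, and their sum of 78.2 and 39.0 FPKM rested mostly on nerfin-1 (24.3 and 3.24 FPKM) and elav (41.3 and 30.5 FPKM). The synaptic marker Syt1 was at 0.578 and 1.63 FPKM. The part of these markers in the differences of the list was not tested.

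**Figure D4:**
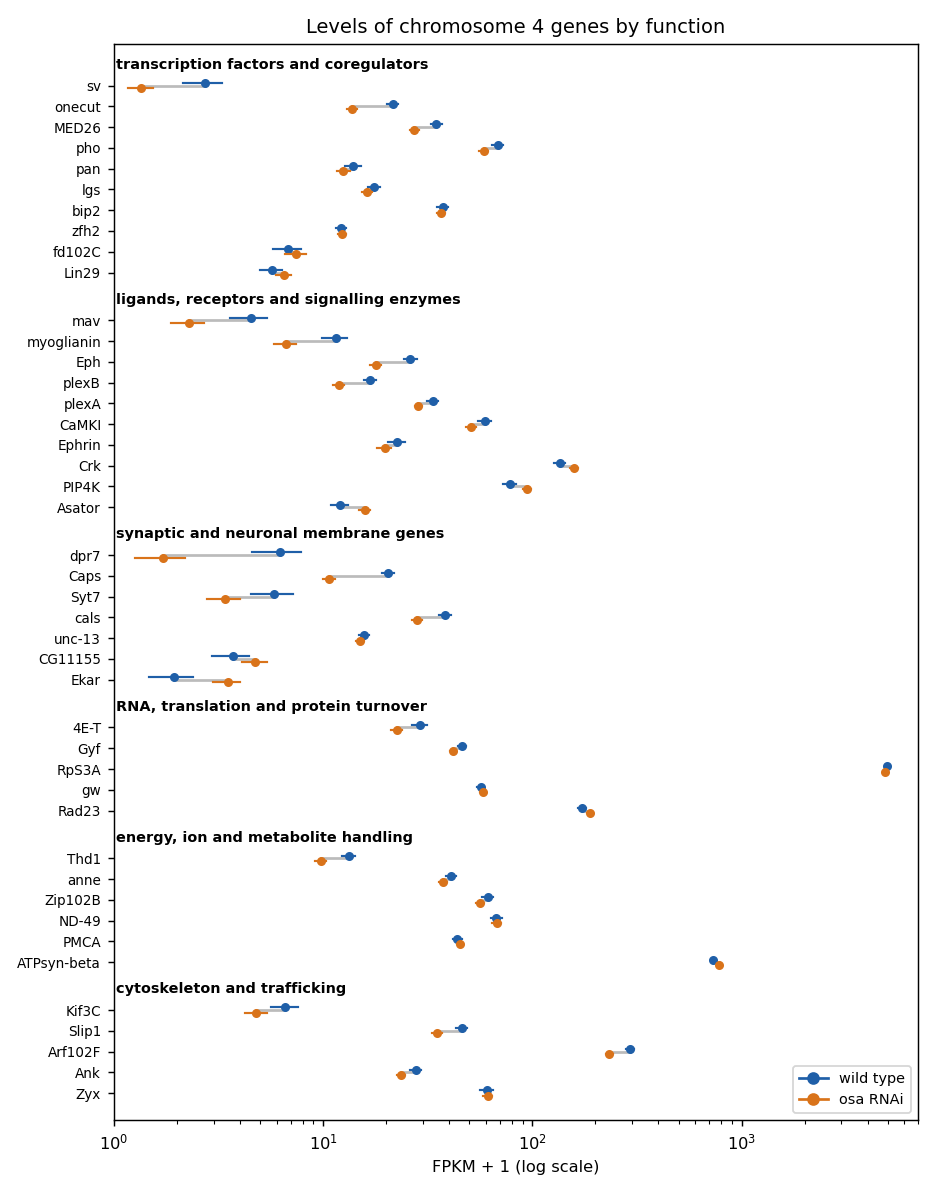
FPKM + 1 on a log scale (x axis) of 43 compared chromosome 4 genes in 6 lists by function (y axis), with blue for wild type and orange for osa RNAi. Coloured bars show the deposited bounds, which do not cover variation between replicate libraries. Within the synaptic list dpr7, Caps and Syt7 are lower under osa RNAi and Ekar is higher, while RpS3A and ATPsyn-beta have nearly equal levels in both libraries.

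The 2 genes of the chromosome with the highest levels had differences close to 0. The ribosomal protein gene RpS3A was at 4932 FPKM (4880 to 4985) in the wild type and 4862 FPKM (4822 to 4902) under osa RNAi, a difference of −0.02 that turns to 0.09 after rescaling by the upper quartile. ATPsyn-beta, the catalytic subunit gene of the mitochondrial ATP synthase, was at 732 and 781 FPKM (0.09), and the complex I gene ND-49 (CG1970) at 66.3 and 66.6 FPKM. These levels were close to equal, with bounds apart for ATPsyn-beta alone. Among 5 genes of RNA, translation and protein turnover the median was −0.02. The microRNA effector gene gawky (gw) was at 55.6 and 57.3 FPKM with overlapping bounds. The proteasome shuttle gene Rad23, at 172 and 189 FPKM (0.13), was higher with bounds apart. Its bounds overlapped after rescaling the libraries by their median ratio. The translational repressor genes 4E-T (CG32016, 28.0 and 21.6 FPKM, −0.36) and Gyf (CG11148, 45.3 and 40.8 FPKM, −0.15) were lower with bounds apart, those of Gyf only without rescaling by the upper quartile.

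The list of energy, ion and metabolite handling had 6 compared genes and a median of −0.06. The calcium pump gene PMCA was at 42.8 FPKM in the wild type and 44.2 under osa RNAi, the zinc transporter gene Zip102B (CG2177) at 60.3 and 55.4 FPKM, and the P-type ATPase gene anne (CG32000) at 40.01 and 36.3 FPKM. All 3 had overlapping bounds. Its single lower gene with bounds apart, Thd1, encodes a DNA glycosylase and so does not do what the list is named for (12.2 and 8.77 FPKM, −0.44). After rescaling by the upper quartile the medians of this list and of the RNA list were 0.06 and 0.09. Of 5 compared genes of the cytoskeleton and trafficking, 4 were lower with bounds apart (median −0.33, or −0.21 after rescaling by the upper quartile). On the chromosome, 45.0% of compared genes were lower with bounds apart. The small GTPase gene Arf102F was at 292 and 233 FPKM (−0.33), Slip1, which encodes a partner of the Slowpoke potassium channel, at 45.1 and 34.1 FPKM (−0.39), the ankyrin gene Ank at 26.8 and 22.6 FPKM (−0.24) and the kinesin gene Kif3C at 5.61 and 3.81 FPKM (−0.46). The bounds of Ank and Kif3C overlapped after rescaling by the upper quartile. The zyxin gene Zyx, whose product sits at cell junctions, was at 59.5 and 60.2 FPKM.

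Outside the lists, 4 genes besides sphinx were higher under osa RNAi with bounds apart. The translation initiation gene eIF4G, scaffold of the cap-binding complex, was at 49.0 FPKM (47.0 to 51.1) in the wild type and 70.8 FPKM (69.0 to 72.7) under osa RNAi. This was 1.44-fold higher (1.38 to 1.52), with a difference of 0.52 and at least 2347 implied reads in each library. CG11076 was at 77.2 and 119 FPKM, 1.54-fold higher (1.43 to 1.66). Mitf, whose product activates lysosomal genes, was at 2.96 and 5.09 FPKM (0.62), and the mitochondrial membrane protein gene Mpv17 (CG11077) at 56.4 and 71.2 FPKM (0.33). The bounds of pncr013:4, given above, overlapped. Lower with bounds apart, besides those named or counted above, were Pur-alpha, which encodes a protein that binds single-stranded nucleic acid (34.0 and 23.1 FPKM, −0.54), and CG31998 (18.5 and 13.4 FPKM, −0.44). The kinase genes CaMKII (49.9 and 53.7 FPKM) and Dyrk3 (19.9 and 19.5 FPKM) had overlapping bounds, as did CG31997 (26.3 and 28.1 FPKM), CG1909 (2.44 and 2.74 FPKM) and CG31999 (1.43 and 0.921 FPKM).

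Genes for proteins that act on chromosome 4 or on heterochromatin were all expressed, and none of the 12 passed the 2-fold rule. Pof was at 22.5 FPKM (20.3 to 24.7) in the wild type and 14.4 FPKM (12.97 to 15.8) under osa RNAi, the lowest difference of the list at −0.61. The gene of HP1a was at 1616 FPKM (1592 to 1639) and 1283 FPKM (1265 to 1300), a difference of −0.33, and the related HP1c gene was at 98.4 and 81.2 FPKM (−0.27). HP1b was at 119 and 117 FPKM with overlapping bounds. The genes of this list that encode histone H3 methyltransferases lay above 0. egg, which encodes Eggless, was at 18.3 and 19.9 FPKM with overlapping bounds, its cofactor gene wde at 25.1 and 28.8 FPKM (0.19), Su(var)3-9 at 21.2 and 27.3 FPKM (0.35) and G9a at 4.34 and 7.36 FPKM (0.65). Of the 12 genes, 7 were higher and 3 lower with bounds apart, beside 35.9% and 29.9% over all genes. Besides those above, the higher ones were CG8290 (difference 0.47), JIL-1 (0.30), Su(var)3-7 (0.23) and XNP (0.19). The list median was 0.19 beside 0.04 for all genes (0.30 beside 0.15 after rescaling by the upper quartile). The loci of Pof, the HP1a gene, HP1c, Su(var)3-9, Su(var)3-7 and CG8290 overlap another locus, as do 42.3% of compared genes outside chromosome 4. HP1c had overlapping bounds after rescaling by the upper quartile. Whether the levels of these genes bear on those of chromosome 4 was not tested.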

How the data were processed

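Each library's deposited file lists, gene by gene, an FPKM value that the authors computed, its bounds and a status, per the file headers. Cufflinks 1.3.0, TopHat 1.4.1, DESeq 1.8.3, BWA 0.6.1 and HTSeq stand in the submitters' processing notes without their roles. The genome build, the annotation and any use of strand in counting are not given in those notes or the labels. The authors' deposited table of differential expression gives adjusted p-values and was used only to look for members.

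Loci were read from the tables, with starts counted from 1. The distance from FPKM to its upper bound equals 2 × FPKM/√n. Solved for n, the implied reads, it gave whole numbers within 0.02 for 93.6% of 839 (wild type) and 94.1% of 1011 (osa RNAi) single-transcript genes below 50 reads. Genes with several transcripts were not part of this check, and their implied reads need not be plain counts. For plexA these were 1094 and 2421, where equal levels would correspond to 1699 under osa RNAi, yet its FPKM ratio was 0.85. Ratio intervals (95%) came from the implied reads and, like the bounds, do not cover variation between replicate libraries. Differences used log2(FPKM + 1), a mean FPKM of at least 1 and status OK in both libraries. Other genes were weighted to the members' shares in 20 level bins, or in 5 level by 4 length bins. Current symbols came from a gene name table, which matched 79 of 82 identifiers. The lists, the rules and the members were chosen with earlier results of these data known. Named genes were those past the 2-fold rule, those with the highest FPKM, the largest differences, list members and the regulator list; others were named after their values were seen. The rule and the weighting were tested on simulated data. Python 3.11.15, numpy 2.4.6 and pandas 2.3.3 were used. Promoter motifs were not analysed here. One of the 4 genes at least 2-fold lower is counted but its values are not reported here.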

Additional observations from a re-analysis of the deposited data

How the results depend on the processing

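No setting gave the chromosome 4 median, or its difference from other genes of like level, a value above 0. The median ran from −0.22 without overlapping loci to −0.03 with no filter on low values, and the difference from −0.27 to −0.03 under the same settings. Counts moved more. Against 4 lower and 1 higher chromosome 4 genes, and 483 lower and 556 higher genes in all, a pseudocount of 5 gave 0 and 0 (109 and 154 in all), and one of 0.1 gave 6 and 2 (604 and 686). A mean FPKM of at least 5 gave 2 and 0 (180 and 261), and a minimum of 0.5, or none, gave 4 and 2 (636 and 756 under each). A fold of 1.5 gave 11 and 4 (1021 and 1219), and one of 3 gave 1 and 1 (245 and 286). Without overlapping loci there were 4 and 0 (272 and 297), and without genes listed at 0 there were 4 and 1 (342 and 370). Rescaling by the upper quartile left 1 lower (dpr7) and 1 higher gene (sphinx), with 427 and 687 in all. With ey, toy and ci kept, 6 were lower and 1 higher (485 and 556). At a mean of at least 5 FPKM, 61.0% of the 82 genes counted as measured. The cause of these moves was not tested beyond what each setting does by construction. No paired analysis was possible because each genotype has 1 library, and for the same reason no library could be left out. Depth limits the low genes: 11 of the 60 had under 100 implied reads in at least 1 library.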

Other observations

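Genes near the centromeres of the large arms were examined after the values of chromosome 4 and of the heterochromatic scaffolds had been seen. Of the 5 large arms, 123 compared genes lay within 1 Mb of the outermost gene on the centromere side. Their median difference was 0.02, with 56 below 0 (45.5%). By the 2-fold rule 6 of them were lower (4.88%) and 14 higher (11.4%), beside 6.76% and 7.78% over all genes compared. Genes from 1 to 5 Mb had a median of 0.01 (1172 genes) and those farther away one of 0.05 (5749 genes). The arms differed within this first 1 Mb. The median was −0.35 on 3L (5 genes), −0.18 on 2R (17 genes), 0.00 on 3R (61 genes), 0.05 on X (18 genes) and 0.09 on 2L (22 genes), beside −0.33 for the 38 scaffold genes. The pooled median holds more genes of 3R than of any other arm.

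Of the scaffold genes past the 2-fold rule, CG17169 (6.24 FPKM), l(2)41Ab (3.15 FPKM) and CR43480 (2.47 FPKM) were listed at 0 in osa RNAi. CG41378 was at 63.1 FPKM in the wild type and 12.5 FPKM under osa RNAi, and CG41099 at 32.3 and 14.5 FPKM. The single higher gene, CG40498, was at 0.113 and 2.66 FPKM.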
